A study of Mus musculus with 3 samples.

Results

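Muscle stem cells (MuSCs) of the costal diaphragm were studied in single-cell RNA-Seq libraries of mononuclear cells from mice with diet-induced obesity. A barcode was taken as a MuSC when it held at least 2 unique molecular identifiers (UMIs, each marking 1 captured mRNA molecule) of *Pax7*, *Myf5* and *Cdh15* together and no UMI of *Pdgfra*, *Ptprc* or *Pecam1*. These last genes mark fibro-adipogenic progenitors (FAPs), leukocytes and endothelial cells. The rule found 969 MuSCs among 12275 barcodes, or 7.89%. The levels of those 6 genes chose the cells and are given below only as a description.

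Each group was 1 library. WT CD came from C57Bl/6J mice on control diet, WT HFD from C57Bl/6J mice on a high-fat diet with 45% of its energy from lipid, and KO HFD from mice of the strain B6.129S2-Thbs1tm1Hyn/J, which lack *Thbs1* in the whole body, on the same high-fat diet. By the study's methods all mice were male and ate chow until 2 months of age. WT CD mice stayed on it for 6 more months while the HFD groups were changed to the high-fat diet for that time, and mice were pooled within a group. Per the labels of the libraries, dead cells stained with DAPI were removed by flow cytometry after collagenase II digestion. The cells of 1 mouse could not be told from those of another. No difference between libraries therefore has a replicate check, and every interval below is a 95% interval for counting error only.

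MuSCs, or satellite cells, lie between a muscle fiber and its basement membrane and rebuild fibers after injury. In rest they express *Pax7* and depend on Notch and calcitonin receptor signals. On activation they express *Myod1* and divide, and on commitment they turn on *Myog*, leave the cell cycle and fuse. The diaphragm contracts without pause, and its MuSCs are known to contribute to fibers even without injury.

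MuSCs made up 295 of 4132 barcodes in WT CD (7.14%, exact Clopper-Pearson interval 6.37 to 7.97%). They made up 255 of 3774 in WT HFD (6.76%, 5.98 to 7.60%) and 419 of 4369 in KO HFD (9.59%, 8.73 to 10.5%). The share was close in both WT libraries and above them in KO HFD, with no overlap of its interval with theirs. By the MuSC cluster described below in place of the rule, the shares were 10.4% (9.47 to 11.4%) in WT CD, 8.56% (7.69 to 9.50%) in WT HFD and 11.7% (10.7 to 12.6%) in KO HFD. There the intervals of KO HFD and WT CD overlapped, so that difference depends on how MuSCs are chosen. Such a share depends on the yield of the digest and on every other cell type in the library. The MuSCs held 1493021, 1606408 and 2836610 UMIs in WT CD, WT HFD and KO HFD. Their median depth was 4598, 5549 and 5819 UMIs per cell in the same order, below the 7851, 8258 and 7824.5 of the other barcodes, and their median mitochondrial share was 4.88, 4.24 and 4.18%. WT CD MuSCs were thus the shallowest. For some genes, the share of MuSCs with a UMI is also given below at equal depth. The part of depth in the other differences between libraries was not tested.

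The label was checked against genes the rule did not use. *Chodl*, a membrane lectin of resting satellite cells, was found in 89.4% of MuSCs, and *Calcr*, the calcitonin receptor, in 27.3%. In the FAP gate (at least 2 *Pdgfra* UMIs and none of *Pax7*, *Myf5*, *Cdh15*, *Ptprc* or *Pecam1*), *Chodl* was found in 1.41, 1.47 and 0.740% of barcodes in WT CD, WT HFD and KO HFD, at higher depths of 8740, 9260 and 8501 UMIs. Unsupervised clustering of all barcodes placed 937 of the 969 MuSCs in 1 cluster of 1261 cells. A further 269 cells of that cluster held fewer than 2 UMIs of the rule genes and 55 held an excluding gene, so the rule is narrower than the cluster. Just outside the threshold, 188 barcodes with 1 rule UMI and no excluding gene had 499 counts per 1000000 UMIs (CPM) of *Chodl* and 698 CPM of *Dcn*, a FAP gene. Just inside it, 213 MuSCs with 2 rule UMIs had 507 and 89.6 CPM. *Dcn* did not fall steadily further inside, with 286, 63.0 and 339 CPM at 3, 4 and 5 rule UMIs.

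Markers of other cell types were low in MuSCs, with exceptions. The 10 FAP markers summed to 1275, 1467 and 1400 CPM in WT CD, WT HFD and KO HFD, against 28485, 29446 and 31214 CPM in the other barcodes, with *Gsn* the most abundant. By the rule, *Pdgfra* of this list, *Pecam1* of the endothelial list and *Ptprc* of the macrophage list were at 0. The low sums of these lists were thus set in part by the rule. The 8 endothelial markers summed to 6.03, 9.96 and 14.5 CPM, led by *Fabp4*. The lymphatic list reached 208, 230.3 and 236 CPM, nearly all of it *Prox1*, and the mural list 468, 771 and 538 CPM, led by *Acta2* with *Notch3* also present. *Prox1*, *Acta2* and *Notch3* were each at least 4-fold higher in MuSCs than in the other barcodes in every library. *Notch3* is a known receptor of satellite cells. The remaining marker lists were low apart from the B cell and erythroid lists, with the 10 macrophage markers at 24.8, 28.0 and 114 CPM and the 8 Schwann markers at 46.9, 31.1 and 99.1 CPM. In WT CD, 1 MuSC barcode with 24967 UMIs held 98.7% of the *Igkc* UMIs of that library's MuSCs, 98.9% of *Ighm* and 98.5% of *Jchain*, all of antibody-secreting cells. In KO HFD, 1 barcode held 99.6% of the *Hba-a1* and 98.4% of the *Hbb-bs* UMIs, genes of red blood cells. These barcodes met the rule and were kept. Without the 1 barcode, *Igkc* was at 69.5 CPM in WT CD, against 3.74 and 3.53 CPM in WT HFD and KO HFD, and the other barcodes of WT CD were also highest in B cell markers (33464, 2579 and 4049 CPM). The libraries shared 7, 2 and 7 barcode sequences in the pairs WT HFD and WT CD, KO HFD and WT HFD, and KO HFD and WT CD, and in no case was the same sequence a MuSC in both.

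The profile of MuSCs against all other barcodes of the same library was led by transcription factors and surface proteins of the satellite cell. Of 2600 genes with at least 50 CPM in MuSCs of any library, 125 (4.81%) were at least 4-fold higher in MuSCs in every library and 39 (1.5%) at least 4-fold lower. The 25 leading genes were ranked by their smallest ratio over the libraries and required 50 CPM in each. They are described without a test, since the rule used the same cells.

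After the rule genes *Myf5*, *Pax7* and *Cdh15*, *Pax3* ranked highest. It is the paralog of *Pax7* that is retained in satellite cells of some muscles, the diaphragm among them. It had 67.0, 96.5 and 81.1 CPM in MuSCs of WT CD, WT HFD and KO HFD, against 1.16, 1.05 and 1.49 CPM in the other barcodes. *Edn3*, which encodes the peptide endothelin 3, had 108, 161 and 162 CPM against 2.35, 1.88 and 3.24 CPM. Other regulators in the list were the myogenic factor *Myod1* at 173, 182 and 199.9 CPM, the transcription cofactor *Vgll2* at 58.3, 57.3 and 78.3 CPM, and the ankyrin repeat protein *Ankrd1* at 322, 337 and 304 CPM. Every value in MuSCs of these genes lay above every value in the other barcodes.

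*Fgfr4*, a receptor for fibroblast growth factors, was nearly level at 167, 163 and 169 CPM, and *Calcr* at 61.0, 60.4 and 55.0 CPM. *Megf10*, a Notch-linked receptor of satellite cells, had 82.4, 114 and 99.8 CPM, and *Rapsn*, which clusters acetylcholine receptors at the neuromuscular junction, had 104, 134 and 117 CPM. Secreted proteins in the list were *Chrdl2*, an antagonist of bone morphogenetic proteins (231, 290.1 and 293 CPM), *Erfe*, which encodes the iron hormone erythroferrone, and *Gal*, which encodes the neuropeptide galanin. *Erfe* and *Gal* differed between libraries and are taken up below.

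**Figure D1:**
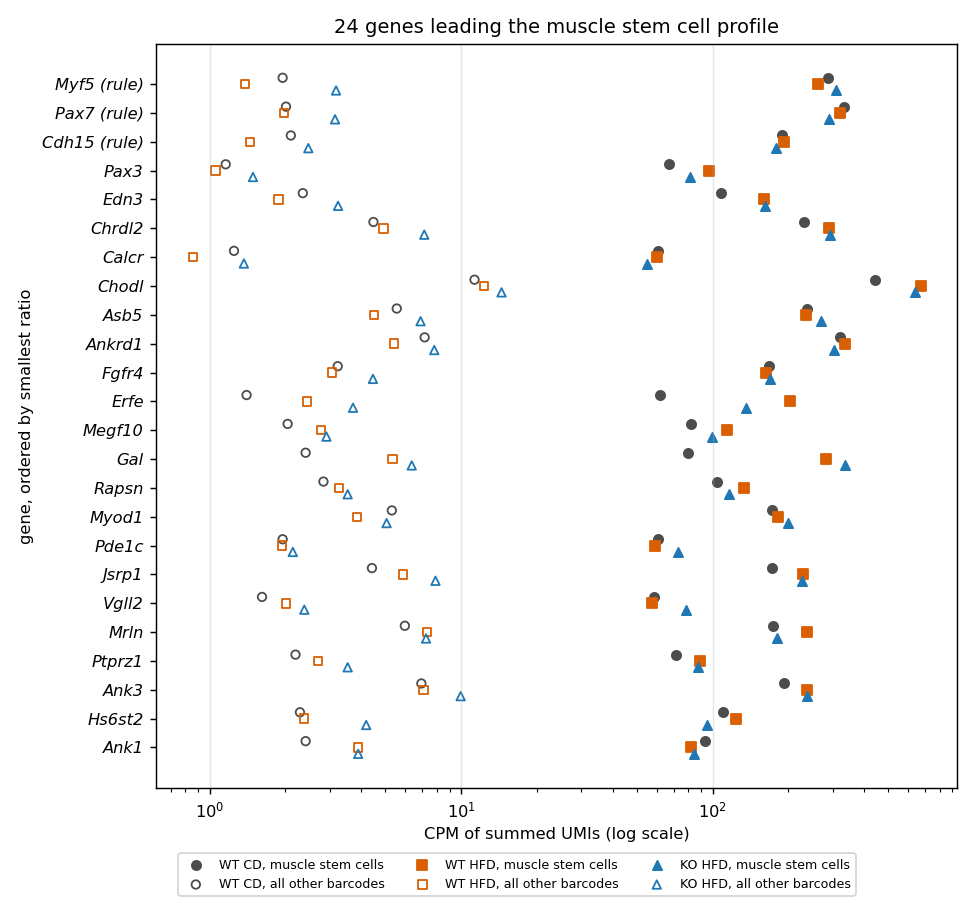
CPM of summed UMIs (log scale) of 24 genes that lead the MuSC profile, in MuSCs (filled) and in all other barcodes (open) of each library. For every gene the filled points lie to the right of the open ones, and *Gal* and *Erfe* show the widest spread between the filled points, with WT CD lowest.

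Of the 40 genes on a list of quiescent satellite cell genes, 31 had at least 50 CPM. Of these, 24 were among the 125, beside 4.81% of all 2600 genes. The 24 include the rule genes *Pax7*, *Myf5* and *Cdh15*, which the rule placed there. The list was chosen with earlier results of these data known, so this count is a description and no separate check of the label. The most abundant of the 40 was *Gpx3*, a secreted glutathione peroxidase that is not among the 24, at 1713, 1295 and 1128 CPM. It was called lower in KO HFD against WT CD, by the rule given below, and in WT HFD against WT CD with TMM scaling only. *Sdc4*, a heparan sulfate co-receptor that is also bound by thrombospondin-1, had 1147, 1012 and 948 CPM. In the stress list, which holds immediate early genes that are switched on by tissue digestion, *Fos* was found in 96.9, 97.3 and 98.1% of MuSCs of WT CD, WT HFD and KO HFD and *Egr1* reached 5368, 4512 and 4633 CPM. Stress genes made up 4.40, 3.89 and 3.89% of all MuSC UMIs.

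The E-box CAGCTG (its own reverse complement, so both strands are read at once), the site bound by MYOD1, was looked for in RefSeq promoter windows of GRCm38.p6, from 250 bases before to 50 bases after a transcript start. A gene can have several starts, and the table holds 32851 windows of 27025 genes. It is shown because *Myod1* is itself among the leading genes. Of the 25 leading genes 16 matched the table, and 3 of them (18.8%) held the motif, against 18.3% of all genes in the table, so the share is near that of any gene. By window, 3 of 22 (13.6%) held it, against 16.3% of all windows. Among the 125 genes, 84 matched and 22 (26.2%) held it, and by window 22 of 119 (18.5%) did. The windows, on the strand of the gene with the motif in capitals, are at chr2:174760530-174760559 (plus strand), chr6:56362822-56362851 (minus strand) and chr8:54550347-54550376 (plus strand). The windows of *Pde1c* and *Asb5* belong to starts that lie inside the gene as the annotation spans it. *Pde1c* held a further copy that is not shown. A match is a description of the letters and no evidence of binding.
*Edn3*: gtggccttcaagCAGCTGttcgggccttca
*Pde1c*: agcagggtggtgCAGCTGtgtggagctgac
*Asb5*: ttcccttcggacCAGCTGttcaagagcatc

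*Thbs1*, the gene disrupted in KO mice, encodes thrombospondin-1, a secreted matrix protein that binds CD47 and can activate latent TGF-β. It had 30 UMIs in WT CD MuSCs (20.1 CPM, Poisson interval 13.6 to 28.7), 27 in WT HFD (16.8 CPM, 11.1 to 24.5) and 117 in KO HFD (41.2 CPM, 34.1 to 49.4). In KO HFD, 33 of the 117 came from 1 barcode. In the other barcodes it had 141, 212 and 174 CPM. MuSCs thus carried little *Thbs1* RNA, and the KO HFD library did not lack it. The chemistry reads the 3′ end of a transcript, so tags outside the disrupted part check nothing about the protein. Of 18 thrombospondins and their receptors, 5 reached 50 CPM, and 0 of the 5 were called in WT HFD against WT CD or in KO HFD against WT HFD, by the rule given below. Among all genes 13.3% were higher and 2.86% lower in the former comparison, and 1.42% and 1.54% in the latter, so nothing particular to the list is read from a count of 0 among 5 genes. *Cd47* had 212, 253 and 226 CPM, *Lrp1*, an endocytic receptor, 97.1, 80.9 and 91.0 CPM, and *Itgb1* 273, 279.5 and 272 CPM. *Cd36* was nearly absent, with 0, 5 and 11 UMIs.

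Gene levels were then compared between libraries. A gene was called when it differed at least 1.5-fold, with the exact binomial interval of its ratio excluding 1, among genes that reached 50 CPM in 1 or both of the libraries. For WT HFD against WT CD, 336 of 2519 genes were higher (13.3%) and 72 lower (2.86%). The median log2 ratio of all compared genes was 0.18, so a typical gene was itself above WT CD. With trimmed mean scaling (TMM), which centres that shift to -0.04, 142 genes were higher (5.67%) and 178 lower (7.11%), all 142 were among the 336, and all 72 were among the 178. Of the calls, 82.4% were thus higher by total UMIs and 44.4% by TMM. Ribosomal protein genes made up 29.1, 26.7 and 28.8% of MuSC UMIs in WT CD, WT HFD and KO HFD, and their part in the shift was not tested. The number of genes called higher thus depends on the scale, and genes of this comparison below are named as called with both scalings unless stated. For KO HFD against WT HFD, 36 of 2530 genes were higher (1.42%) and 39 lower (1.54%), with a median of -0.03. For KO HFD against WT CD, 193 of 2452 were higher (7.87%) and 60 lower (2.45%), with a median of 0.16. With TMM these were 42 (1.73%) and 34 (1.4%) for KO HFD against WT HFD, and 78 (3.18%) and 126 (5.13%) for KO HFD against WT CD. Any 2 of these comparisons share a library, so levels are set side by side.

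**Figure D2:**
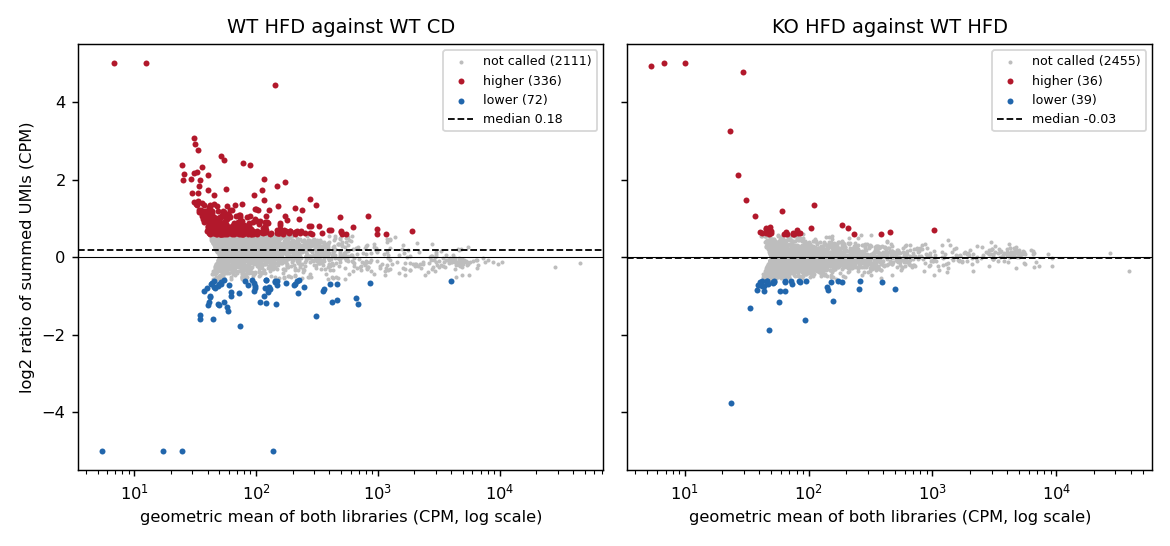
Log2 ratio of CPM in MuSCs against the geometric mean of both libraries (CPM, log scale), 1 point per gene, for WT HFD against WT CD (left) and KO HFD against WT HFD (right). Ratios with a count under 3 use a floor of 3 UMIs and ratios past 5 are drawn at 5. The left cloud is centred above 0 (dashed median 0.18), with 336 points called higher, and the right cloud is centred near 0.

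Several genes of fatty acid oxidation and lipid handling were called higher in HFD MuSCs than in WT CD, and others were not. Of 34 genes on a fatty acid response list, 12 were compared in WT HFD against WT CD. Of these, 8 were higher and 0 lower, with a median log2 ratio of 0.95, beside 0.18 for all genes and 13.3% of all genes called higher. With TMM 6 of 11 were higher, beside 5.67% of all genes. In KO HFD against WT CD, 4 of 8 were higher and 0 lower, beside 7.87% of all genes higher, with a median of 0.56. With TMM 2 of 8 were higher (*Cpt1a* and *Acadl*), beside 3.18% of all genes.

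*Ucp2*, a mitochondrial carrier, had 17 UMIs in WT CD (11.4 CPM, in 14 cells), 138 in WT HFD (85.9 CPM, 78 cells) and 109 in KO HFD (38.4 CPM, 75 cells). WT CD was lowest and WT HFD highest, and no interval overlapped another. The log2 ratio was 2.92 (2.18 to 3.74) for WT HFD against WT CD and -1.16 (-1.54 to -0.79) for KO HFD against WT HFD. *Fabp3*, the muscle fatty acid-binding protein, had 18.1, 64.7 and 45.8 CPM in WT CD, WT HFD and KO HFD. *Acadl*, the long-chain acyl-CoA dehydrogenase, had 47.6, 124 and 86.0 CPM, and *Cpt1a*, which admits fatty acids to mitochondria, had 26.8, 62.3 and 53.9 CPM. *Ech1*, an isomerase of β-oxidation, had 69.0, 159 and 117 CPM. All of these were lowest in WT CD and highest in WT HFD. *Angptl4*, a lipase inhibitor induced by fatty acids, stayed under 50 CPM and was not compared. It had 1 UMI in WT CD, 61 in WT HFD (38.0 CPM, 41 cells) and 82 in KO HFD (28.9 CPM, 47 cells). *Pdk4*, a kinase that spares glucose, had 34.2, 32.4 and 36.0 CPM, and *Lpl* 95.8, 92.1 and 84.3 CPM. In the FAP gate the log2 ratio of WT HFD to WT CD was 1.63 for *Ucp2*, 0.60 for *Fabp3*, 0.74 for *Cpt1a* and 0.30 for *Acadl*. *Ucp2* was low there, at 2.71 CPM in WT CD and 8.40 CPM in WT HFD. *Fabp3* was there at 2.29 and 3.47 CPM, and 14 of its 33 UMIs in WT CD came from 1 barcode.

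Most of the few sterol synthesis genes that could be compared were lower in HFD MuSCs than in WT CD. Of 31 genes on the list, 5 were compared in WT HFD against WT CD and 4 were lower, beside 2.86% of all genes, with a median log2 ratio of -1.24. With TMM 5 of 6 were lower, beside 7.11% of all genes. In KO HFD against WT CD, 3 of 5 were lower, beside 2.45% of all genes, with a median of -0.82, and with TMM 5 of 6, beside 5.13%. *Idi1*, the isomerase of isoprenoid synthesis, had 116 UMIs in WT CD (77.7 CPM), 41 in WT HFD (25.5 CPM) and 113 in KO HFD (39.8 CPM). Its log2 ratio was -1.61 (-2.16 to -1.08) in WT HFD and -0.96 (-1.35 to -0.58) in KO HFD, each against WT CD. *Cyp51*, which demethylates lanosterol, had 60.3, 19.9 and 34.2 CPM, and *Fdps*, which makes farnesyl diphosphate, 61.6, 26.1 and 31.4 CPM. *Insig1*, which holds the sterol sensor in the endoplasmic reticulum, had 60.3, 29.3 and 44.8 CPM and was called in WT HFD, and in KO HFD with TMM only. *Srebf2*, the transcription factor that drives these genes, had 73.7, 63.5 and 58.9 CPM and was not called. *Idi1* was lower in WT HFD in the FAP gate as well, with a log2 ratio of -1.32.

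**Figure D3:**
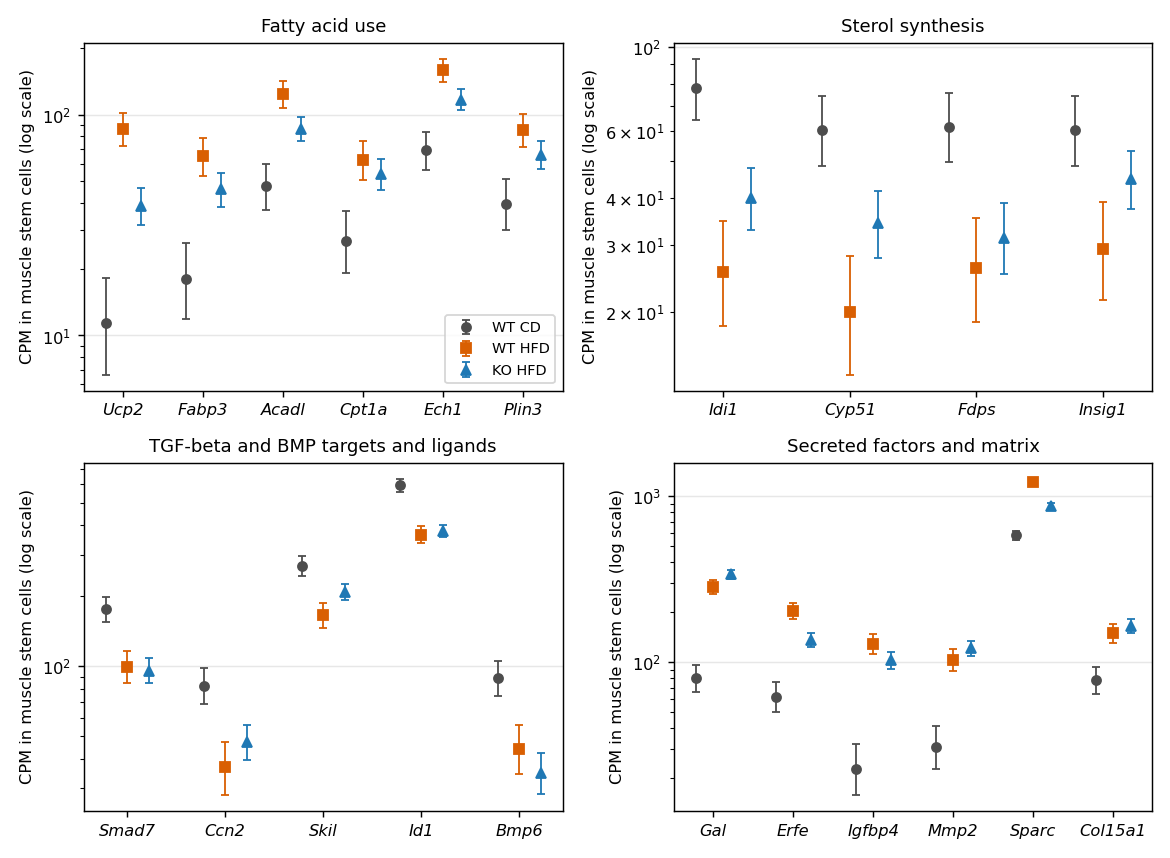
CPM in MuSCs (log scale, with 95% Poisson intervals) of genes grouped by role, in WT CD (circles), WT HFD (squares) and KO HFD (triangles). Fatty acid genes and the secreted and matrix genes are lowest in WT CD, and sterol genes and genes of TGF-β and BMP signalling are highest in WT CD. The genes shown were chosen after their values were seen.

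Several genes that TGF-β and BMP signals induce were lower in HFD MuSCs. Of 31 genes on a TGF-β family list, 14 were compared in WT HFD against WT CD, of which 1 was higher and 4 lower, beside 13.3% and 2.86% of all genes, with a median log2 ratio of -0.40. With TMM, 7 were lower, beside 7.11% of all genes. In KO HFD against WT CD the count was again 1 higher and 4 lower of 14, beside 7.87% and 2.45% of all genes, with a median of -0.36, and with TMM 0 were higher and 6 lower, beside 3.18% and 5.13%. In KO HFD against WT HFD 0 of 12 were called, beside 1.42% of all genes higher and 1.54% lower. *Smad7*, a pathway inhibitor that TGF-β itself induces, had 261 UMIs in WT CD (175 CPM), 159 in WT HFD (99.0 CPM) and 271 in KO HFD (95.5 CPM). Its log2 ratio was -0.82 (-1.11 to -0.53) in WT HFD and -0.87 (-1.12 to -0.62) in KO HFD. *Ccn2*, a matricellular protein, had 82.4, 36.7 and 47.2 CPM. Both HFD libraries lay below WT CD in these genes with no overlap of the intervals. *Skil*, a repressor of SMAD proteins, had 268, 165 and 208 CPM. It was called in WT HFD, while *Pmepa1*, a membrane protein that dampens the pathway, was called lower in KO HFD. The 1 gene that was higher, *Ltbp1*, encodes a latent TGF-β binding protein and had 33.5, 61.0 and 52.2 CPM. The ligand *Tgfb2*, at 68.3, 66.6 and 59.6 CPM, and the receptor *Tgfbr1*, at 51.6, 39.8 and 34.5 CPM, were not called in WT HFD against WT CD. *Id1*, a BMP target on the list of commitment regulators, had 593, 365 and 378 CPM. Outside the lists, and chosen after their values were seen, *Bmp6* had 88.4, 44.2 and 34.9 CPM and *Ltbp4* 305, 160.0 and 177 CPM. *Ccn2* in the FAP gate had a log2 ratio of 0.14 for WT HFD against WT CD.

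Of 38 immediate early and heat shock genes compared in WT HFD against WT CD, 2 were higher and 6 lower, beside 13.3% and 2.86% of all genes, with a median log2 ratio of -0.28. With TMM 15 of the 38 were lower, beside 7.11% of all genes. The heat shock genes *Hspa1a* (1050.2, 457 and 487 CPM) and *Hspb1* (944, 458 and 462 CPM) were lower in both HFD libraries, and so was *Hspa1b*, a near-identical copy of *Hspa1a* whose reads may be split between them. In the same comparison the orphan receptors *Nr4a2* (137, 39.8 and 61.7 CPM) and *Nr4a3* (95.8, 36.7 and 53.6 CPM), outside that list, were lower too. *Klf2*, a transcription factor of the list, was higher at 69.7, 193 and 107 CPM. *Hspa1a* in the FAP gate had a log2 ratio of -1.05 for the same libraries. Genes of this kind respond to handling of the tissue, whose part was not tested.

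*Gal* had 119 UMIs in 50 of 295 WT CD MuSCs (79.7 CPM), 454 in 117 of 255 WT HFD MuSCs (283 CPM) and 954 in 182 of 419 KO HFD MuSCs (336 CPM). Both HFD libraries were far above WT CD, with log2 ratios of 1.83 (1.53 to 2.13) and 2.08 (1.80 to 2.36). *Erfe* had 61.6, 203 and 136 CPM. *Igfbp4*, which binds insulin-like growth factors, had 34, 207 and 290 UMIs in 20, 108 and 145 cells (22.8, 129 and 102 CPM), with log2 ratios of 2.50 (1.97 to 3.07) and 2.17 (1.65 to 2.72). *Igf2*, one such factor, chosen after its values were seen, was lower at 89.8, 36.7 and 53.9 CPM. *Igfbp4* was more abundant in the FAP gate, at 1374 CPM in WT CD, with a log2 ratio of 0.07 there for WT HFD against WT CD, while *Gal* was at 0.278 CPM and *Igf2* at 10.3 CPM in the FAP gate of WT CD. *Rarres2*, the adipokine chemerin, was lower at 527, 184 and 207 CPM, with a log2 ratio of -1.52 (-1.72 to -1.33) in WT HFD. *Cxcl10*, an interferon-induced chemokine, had 34.2, 182 and 127 CPM but was found in only 16, 24 and 47 cells.

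Other genes higher in HFD MuSCs, outside the lists and chosen after their values were seen, were *Ttyh1*, a membrane channel protein (16.1, 80.3 and 64.9 CPM), *Mgarp*, a mitochondrial protein (15.4, 71.0 and 56.1 CPM), and the imprinted gene *Mest* (55.6, 168 and 204 CPM). *Oxct1*, the enzyme that lets cells use ketone bodies, was lower at 57.6, 20.5 and 26.4 CPM. Each of these had both HFD libraries on the same side of WT CD with no overlap of the Poisson intervals.

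Of 35 basement membrane and matrix genes, 19 were compared in WT HFD against WT CD, of which 7 were higher and 1 lower, beside 13.3% and 2.86% of all genes, with a median log2 ratio of 0.20 beside 0.18 for all genes. With TMM 4 were higher and 3 lower, beside 5.67% and 7.11% of all genes. *Sparc*, a collagen-binding protein, had 578, 1215 and 874 CPM, and *Mmp2*, the gelatinase, 30.8, 103 and 121 CPM. *Mmp2* was more abundant in the FAP gate, at 530, 605 and 664 CPM in WT CD, WT HFD and KO HFD. The part of RNA from FAPs in its MuSC values was not tested. *Col15a1*, a collagen of basement membrane zones, had 77.7, 149 and 165 CPM. *Timp3*, which inhibits matrix proteases, was the gene that was lower, at 129.9, 74.1 and 111 CPM. *Lama2*, a laminin chain of the fiber's basement membrane, was level at 113, 114 and 110.3 CPM. *Dcn* was higher without TMM only, and 75% of its UMIs in WT HFD MuSCs came from 1 barcode. Without the top barcode of each library its log2 ratio was -0.75.

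Of 31 quiescence genes compared in WT HFD against WT CD, 6 were higher and 0 lower, beside 13.3% and 2.86% of all genes, with a median log2 ratio of 0.24 beside 0.18 over all genes. With TMM 3 were higher and 2 lower, beside 5.67% and 7.11% of all genes. The higher genes include *Cdkn1c* with both scalings. Without cells holding a UMI of *Myog*, *Mki67*, *Top2a* or *Cdk1* its log2 ratio was -0.21, as taken up below. The 31 include *Pax7*, *Myf5* and *Cdh15*, whose levels the rule constrains, and none of these 3 was among the genes called. *Msc*, a repressor of myogenic factors, was higher at 62.3, 130.1 and 140.0 CPM. *Heyl*, a Notch target that keeps satellite cells at rest, had 65.0, 118 and 94.1 CPM and was called in WT HFD only. The receptors *Notch1* (54.9, 87.2 and 81.4 CPM), *Notch2* (71.0, 95.9 and 93.1 CPM) and *Notch3* (123, 101 and 84.6 CPM) and the mediator *Rbpj* (93.8, 97.7 and 100.1 CPM) were not called with both scalings. In all, 2 of 8 Notch pathway genes were higher in WT HFD, beside 13.3% of all genes, and 1 of 8 with TMM, beside 5.67%. In KO HFD against WT HFD 0 of 8 were called, beside 1.42% of all genes higher and 1.54% lower. Of 14 receptors for growth factors and cytokines compared, 1 was higher and 1 lower in WT HFD, beside 13.3% and 2.86% of all genes. *Tnfrsf12a*, the receptor for TWEAK, was the lower one (516, 317 and 388 CPM). *Ptger4*, a prostaglandin receptor, was higher without TMM only. With TMM 0 of 13 were higher and 2 lower (*Tnfrsf12a* and *Cxcr4*), beside 5.67% and 7.11% of all genes.

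Genes of mature fibers were present at low levels. Of 20 such genes 7 were compared in WT HFD against WT CD, and every one of the 7 was higher, beside 13.3% of all genes (6 of 7 with TMM, beside 5.67%). Their median log2 ratio was 0.98. In KO HFD against WT CD only 4 were compared and 0 of 4 were called, beside 7.87% of all genes higher and 2.45% lower, with a median of 0.52 beside 0.16 for all genes. *Acta1*, skeletal actin, had 116, 215 and 140.0 CPM and *Mb*, myoglobin, 26.1, 64.1 and 45.5 CPM. The whole list summed to 430.0, 827 and 571 CPM in MuSCs and to 90.6, 223 and 187 CPM in the other barcodes, in the same order of libraries. *Acta1* in the FAP gate had 12.6, 8.61 and 8.98 CPM. The part of free RNA from broken fibers in the MuSC values was not tested.

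A small number of MuSCs carried a commitment or division program, and most of them were in the HFD libraries. *Myog* was found in 1 of 295 MuSCs in WT CD (0.339%, 0.00858 to 1.87%), 7 of 255 in WT HFD (2.75%, 1.11 to 5.57%) and 9 of 419 in KO HFD (2.15%, 0.987 to 4.04%). The Clopper-Pearson intervals overlap. It had 1, 378 and 303 UMIs, and 0, 4 and 6 cells with 5 or more UMIs held nearly all of them. The log2 ratio of WT HFD to WT CD was 8.46 with an interval of 5.97 to 13.76, or 6.87 with a floor of 3 counts. This ratio rests on those cells. In the FAP gate *Myog* was found in 0 of 1555 WT CD barcodes, which allows a share of barcodes with a UMI of up to 0.193% (3 counts) and does not limit the share that express it, in 0 of 1493 in WT HFD and in 2 of 1757 in KO HFD. Thinned to 2000 UMIs per cell, the MuSC shares were 0.198, 1.83 and 1.74%.

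The rule asks for *Pax7*, *Myf5* or *Cdh15* and so misses cells past that stage. Among all barcodes, 1 in WT CD, 12 in WT HFD and 10 in KO HFD had 5 or more *Myog* UMIs, of which 1, 8 and 4 were outside the rule for having fewer than 2 rule UMIs. All of those lay in the MuSC cluster.

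The 10 MuSCs with 5 or more *Myog* UMIs, a set chosen by that count, are described here without a test. Pooled, they had 4464 CPM of *Myog*, 13373 CPM of the cell cycle inhibitor *Cdkn1c* (2013 UMIs) and 1428 CPM of *Actc1*, the actin of nascent muscle. The fusion genes *Mymk* (379 CPM) and *Mymx* (66.4 CPM) were found as well. The 936 MuSCs that remain without these 10 and without 23 cycling cells, defined below, had 27.8 CPM of *Cdkn1c* and 0.183 CPM of *Actc1*. Of the rule genes the 10 cells held 24 UMIs of *Cdh15*, 2 of *Myf5* and 1 of *Pax7*, so they met the rule mainly through *Cdh15*, and the levels of these genes in them are not compared. *Cdkn1c* is on the quiescence list, and it was called higher in WT HFD (30.8, 667 and 375 CPM). Without cells holding a UMI of *Myog* or of the cycling genes its log2 ratio was -0.21. *Actc1* had 0 UMIs in WT CD and 147 in WT HFD, of which 1 barcode held 40.1%. With a floor of 3 counts per library the ratio was 45.5-fold. The lower end of the binomial interval was a log2 ratio of 5.19.

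Cycling cells, with a UMI of *Mki67*, *Top2a* or *Cdk1*, made up 5 of 295 MuSCs in WT CD (1.69%, 0.553 to 3.91%), 21 of 255 in WT HFD (8.24%, 5.17 to 12.3%) and 16 of 419 in KO HFD (3.82%, 2.20 to 6.13%). The intervals of WT CD and WT HFD did not overlap. Thinned to 2000 UMIs, which left out 13, 3 and 2 shallower cells, the shares were 0.976, 5.48 and 2.85%. Cells with 5 or more such UMIs numbered 1, 11 and 11. Unthinned shares in the FAP gate were 0.836, 1.27 and 0.626%. Pooled over 23 cells with at least 5 of these UMIs and fewer than 5 of *Myog*, *Myod1* had 554 CPM, against 165 CPM in the 936. *Calcr* was at 24.8 CPM in these cells and 61.5 CPM in the 936. Among 9 cell cycle genes compared in WT HFD against WT CD, 7 were higher, beside 13.3% of all genes, and 4 of the 7 held without the top barcode of each library. Of the 7, *Stmn1*, which destabilises microtubules, and *Ccnd3*, a D-type cyclin, were also called without the *Myog* and cycling cells.

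**Figure D4:**
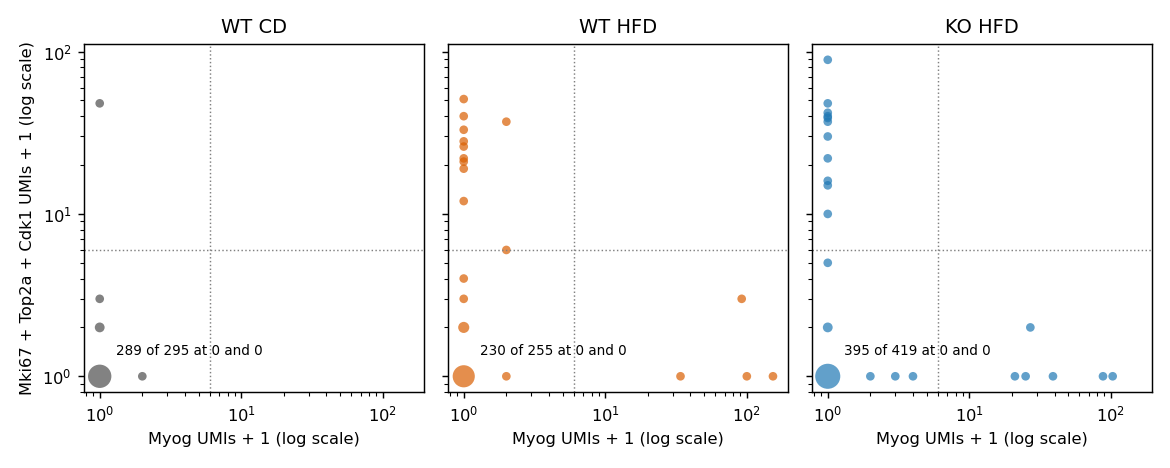
UMIs of *Myog* and of *Mki67*, *Top2a* and *Cdk1* together in each MuSC (both plus 1, log scales), by library, with larger points for more cells and dotted lines at 5 UMIs. WT CD has no cell past the *Myog* line and 1 past the cycling line, WT HFD has 4 and 11, and KO HFD has 6 and 11.

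*Myod1* was found in 40.0, 49.4 and 49.2% of MuSCs of WT CD, WT HFD and KO HFD. Thinned to equal depth the shares were 23.5, 25.8 and 24.9%, so the libraries were nearly level. *Calcr* was found in 25.1, 29.0 and 27.9%, and in 11.8, 11.8 and 10.7% when thinned. *Chodl* was found in 82.0, 91.0 and 93.6%, and in 56.1, 70.8 and 69.0% when thinned, so WT CD remained lowest at equal depth.

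Variation among MuSCs was described by k-means in 4 groups on 10 principal components, after leaving out 508 genes, namely the 6 of the rule and every gene called between libraries. Group 1 (450 cells) was led by *Bambi*, a decoy receptor of the TGF-β family, and *Maff*, a stress-induced transcription factor. Group 2 (318 cells) was led by *Osmr*, the oncostatin M receptor, and *Itpkc*, an inositol phosphate kinase. Group 3 (178 cells) was led by *Txnip*, an inhibitor of thioredoxin, and *Tsc22d3*, a known target of glucocorticoids, and had the stress list at 31444 CPM, near the 31600 CPM of group 4, against 41252 CPM in group 1 and 44757 CPM in group 2. Group 4 (23 cells) was led by histone genes and had a median of 13291 UMIs. These leading genes describe the groups and are no finding, and copies of histone genes share reads.

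Group 1 held 57.6% of MuSCs in WT CD, 36.9% in WT HFD and 44.4% in KO HFD. Group 2 held 32.9, 32.2 and 33.2%. Group 3 held 9.15% (6.11 to 13.0%), 26.3% and 20.05%, with both HFD libraries above the interval of WT CD. Group 3 also had more of some markers of other cell types than the other groups together, with mural markers at 940 against 503 CPM, FAP markers at 1733 against 1308 CPM and Schwann markers at 158 against 47.1 CPM. Tenocyte markers were at 89.6 against 9.91 CPM, macrophage markers at 128 against 54.7 CPM and mesothelial markers at 45.7 against 0.413 CPM. In group 3, the top barcode was found for each list separately. It held 63.6% of the UMIs of the Schwann list, 63.3% of the tenocyte list and 77.9% of the macrophage list. For the mesothelial list it held all UMIs, but for the mural list 10.5% and for the FAP list 15.4%. The fatty acid list stood at 1612 against 940 CPM. That list holds *Txnip* (296 against 47.5 CPM) and *Plin3* (124 against 50.8 CPM), which are among the genes that lead group 3. Its excess is thus in part that of genes picked as leading the group. The part of the markers of other cell types in the shares of group 3 was not tested. Group 1 held the B cell and erythroid barcodes named above (3805 and 405 CPM of those markers). Group 4 held 1, 12 and 10 cells. The split of groups 2 and 3 depends on the number of groups: with 3 groups no group was led by *Txnip*, and the second group held 26.4, 42.4 and 36.8%. Some library differences lay within groups. *Gal* had 85.2, 352 and 378 CPM in group 1, 76.8, 339.9 and 400.4 CPM in group 2, and 70.4 (9 UMIs), 203 and 208 CPM in group 3. *Igfbp4* had 13.2, 145 and 97.7 CPM in group 1 and 15.8, 127 and 113 CPM in group 2, and 117, 152 and 115 CPM in group 3. The WT CD value in group 3 rests on 15 UMIs, of which 12 came from 1 barcode, and without the top barcode of each library the levels in group 3 were 25.6, 139 and 103 CPM. *Rarres2* was highest in WT CD within groups 1, 2 and 3, with 467, 210.3 and 204 CPM in group 1.

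**Figure D5:**
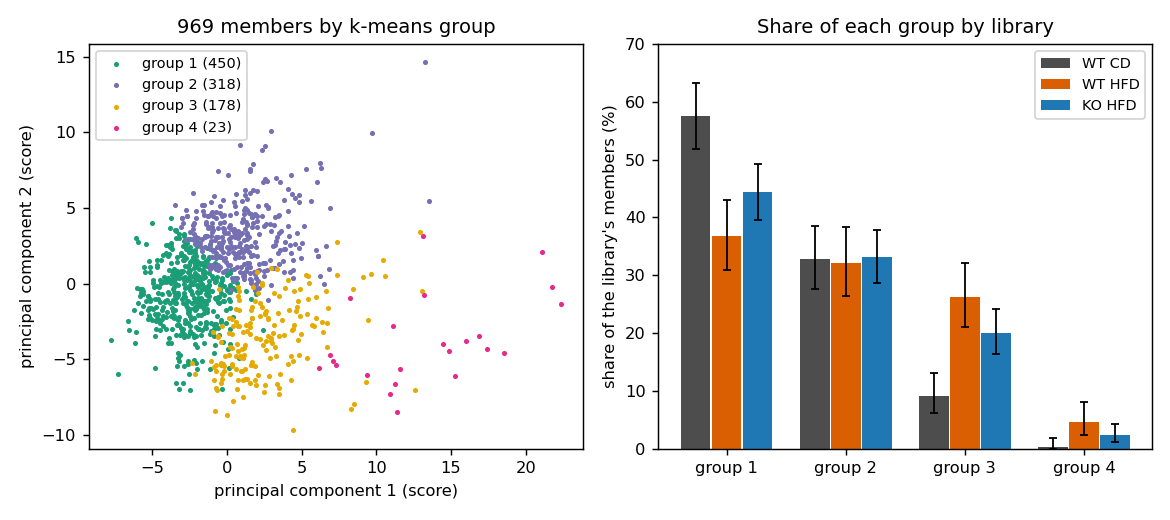
Left, the first 2 principal components (scores) of 969 MuSCs, coloured by k-means group. Right, the share of each library's MuSCs in each group (bars from 0, with 95% Clopper-Pearson intervals). Group 1 is largest in WT CD at 57.6%, and group 3 is smallest there at 9.15%.

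The KO HFD and WT HFD libraries, which differ by genotype on the same diet, had fewer called genes between them. Of the 36 genes higher in KO HFD 28 kept their call without the top barcode of each gene in each library, and of the 39 lower 29 did. Apart from genes of single barcodes, the largest rise was in *Eif3j2*, with 5, 9 and 439 UMIs in WT CD, WT HFD and KO HFD (log2 ratio 4.79, 3.85 to 5.93), beside a lower *Eif3j1*, with 285, 267 and 152 UMIs (-1.63, -1.93 to -1.34). In the FAP gate the log2 ratios were 2.37 and -2.03. These encode near-identical copies of a translation initiation subunit, so reads may be assigned to either, and the values are uncertain as levels of each gene. *Eif3j1* lies within 20 Mb of *Thbs1*, as do *Ehd4*, which remodels endosomes (26.1, 18.7 and 52.2 CPM), and *Actc1* and *Fibin*. Of 39 compared genes in that stretch 4 were called, against 36 higher and 39 lower of 2530 over all genes (1.42% and 1.54%). Of the 4, *Eif3j1* is uncertain as said, and *Actc1* rested on 4 MuSCs with a UMI in WT HFD and 5 in KO HFD. In KO HFD against WT CD 2 of 37 genes in that stretch were called (*Ehd4* and *Eif3j1*). Over all genes of that comparison 7.87% were higher and 2.45% lower. Sequence carried over from the 129 strain in which the allele was made cannot be told apart there from the effect of the allele.

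Elsewhere *Iigp1*, an interferon-induced GTPase, had 116, 113 and 502 UMIs (77.7, 70.3 and 177 CPM), in 47, 36 and 109 cells, with a log2 ratio of 1.33 (1.03 to 1.64) for KO HFD against WT HFD. Of 7 interferon and antigen presentation genes compared it was the 1 called, beside 1.42% of all genes higher, and with TMM 2 of 7 were higher (*Iigp1* and *Irgm1*), beside 1.73%. *F830016B08Rik*, of the same GTPase family, had 65.0, 40.5 and 92.0 CPM. *Vegfa*, the angiogenic factor, had 27.5, 25.5 and 53.6 CPM in 33, 35 and 102 cells, with a log2 ratio of 1.07 (0.56 to 1.60). In KO HFD, *Lyz2* and *Cxcl2* were also called higher, but 53.7 and 89.4% of their UMIs came from 1 barcode each.

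Genes lower in KO HFD than in WT HFD were led by *Ecrg4*, a secreted peptide precursor, with 12.7, 86.5 and 6.35 CPM (log2 ratio -3.77, -4.57 to -3.06), found in 11, 18 and 10 cells. In WT HFD, 37.4% of its UMIs came from 1 barcode. *Ucp2* and *Cxxc5*, a zinc finger protein (42.9, 87.2 and 47.6 CPM), were lower over 75 or more cells of each HFD library. *Actc1*, *Myog* and *Birc5*, a mitotic gene (14.7, 59.1 and 32.4 CPM), rested on the few committed or cycling cells. Of the lists, read beside the 1.54% of all genes that were lower in KO HFD, the cell cycle list had 4 of 9 compared genes lower (*Top2a*, *Birc5*, *Cenpf* and *Stmn1*), of which 3 held without the top barcode of each library. The mature myofiber list had 3 of 7 (*Acta1*, *Ckm* and *Mylpf*), of which 1 held without the top barcode of each library, and the activation and commitment list had 2 of 11 (*Myog* and *Actc1*). Of the fatty acid list 1 of 12 genes was lower in KO HFD, of the quiescence list 1 of 31 (*Cdkn1c*) and of the matrix list 1 of 19 (*Col5a3*, a fibrillar collagen, at 60.3, 103 and 67.3 CPM).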

How the data were processed

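Single-cell libraries were prepared by the authors with the 10x Genomics 3′ v3.1 chemistry, aligned to mm10 (GRCm38) and counted with Cell Ranger 6.1.1 per the labels. The deposited values are raw UMI counts for 32285 genes in 12275 barcodes. Libraries held 34312860, 31967976 and 36478779 UMIs (WT CD, WT HFD, KO HFD).

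Members, gene lists and comparisons were chosen with earlier results of these data known. Counts were summed over MuSCs per library and divided by all their UMIs (CPM). With 1 library per group no test was made. Summed counts carry exact Poisson intervals, ratios conditional binomial intervals and shares Clopper-Pearson intervals, all at 95%. UMIs remove duplicate reads, and intervals and the floor of 3 counts cover counting error only. Genes were named from the 25 leading the profile, the 10 largest rises and 10 largest falls of each pair, and all list genes. Called genes near *Thbs1* and leading genes of the k-means groups are named as well. Others are marked as chosen after their values were seen. Thinned shares are expected shares when 2000 UMIs are drawn per cell. The reference gate for FAPs was 2 or more *Pdgfra* UMIs, with the exclusions given beside it. A few named genes are not reported here.

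Scrublet (expected rate 0.06) marked 52, 41 and 58 barcodes as doublets, of which 1, 1 and 2 were MuSCs, and these were kept. Barcodes with 2 or more rule UMIs and an excluding gene (91, median 13785 UMIs) were left out. Clustering used 2000 variable genes, 30 components, 15 neighbours and Leiden resolution 1 in scanpy 1.11.5. Other tools were Python 3.11.15, scikit-learn 1.9.0 and edgeR 4.0.16 (TMM). Alternatives were other gates, filters, scalings and totals, a mean over cells, and k of 3 or 5.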

Additional observations from a re-analysis of the deposited data

How the results depend on the processing

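No replicate check was possible with 1 library per group, and depth limits genes under 50 CPM. No paired analysis was possible because each group was 1 library. Among values that answer a comparison, 70 kept their size under an alternative and 31 moved. With at least 3 rule UMIs the MuSC shares of WT CD, WT HFD and KO HFD were 5.32, 5.56 and 7.46%, with at least 1 *Pax7* UMI 5.49, 5.46 and 7.67%, and by the Leiden cluster 10.4, 8.56 and 11.7%. KO HFD was highest under all of these, but by the cluster its interval overlapped that of WT CD. With a *Calcr* or *Chodl* UMI the WT CD share was 6.15%.

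For WT HFD against WT CD, TMM gave 142 genes higher and 178 lower, a filter of 20 CPM 747 and 162, and no filter 1176 and 282. For KO HFD against WT HFD, 20 CPM gave 115 and 180, and no filter 266 and 402. Thinned to 2000 UMIs, shares in WT CD, WT HFD and KO HFD were 23.5, 25.8 and 24.9% for *Myod1*, 11.8, 11.8 and 10.7% for *Calcr* and 56.1, 70.8 and 69.0% for *Chodl*, and *Fos* had 93.9% in WT CD and 94.1% in KO HFD.

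Of the values of single genes and lists that were counted under an alternative, 1121 kept their direction and, for genes, their call. A further 122 kept their direction but were no longer called, and 17 reversed. For WT HFD against WT CD (log2), *Cdkn1c* was -0.21 without cells with a *Myog* or cycling UMI, *Dcn* was -1.06 without those cells and -0.75 without the top barcode, and *Ube2c*, a mitotic gene, was -0.27 with 3 rule UMIs. With TMM the list medians were -0.13 (activation and commitment), -0.0051 (matrix) and -0.22 (growth factor receptors). For KO HFD against WT CD they were -0.075 (quiescence), -0.063 (activation and commitment), -0.020 (matrix) and -0.10 (interferon). Some list medians near 0 in KO HFD against WT HFD also changed sign with TMM and are not among the 17. They went from -0.016 to 0.011 (TGF-β family), -0.030 to 0.00091 (growth factor receptors) and -0.021 to 0.0068 (circadian clock). For KO HFD against WT HFD, *Lyz2* was -0.84 by the cluster. *Cxcl2* was -1.33 with 3 rule UMIs, -0.88 by the cluster and -0.56 without the top barcode. With at least 1 *Pax7* UMI, *Myog* was 2.35 and *Cdkn1c* 0.91. Both of these rest on the few cells with *Myog*. *Actc1* had no UMI in WT CD, so its ratio was not followed over alternatives. The cause of the other reversals was not tested.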

Other observations

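Of 7 interferon and antigen presentation genes compared in WT HFD against WT CD, 0 were called, beside 13.3% of all genes higher and 2.86% lower. With TMM 1 of the 7 was lower, beside 7.11% of all genes. Of 2 circadian clock genes compared, 0 were called, beside 13.3% of all genes higher and 2.86% lower. With TMM 2 of 3 (*Nr1d2* and *Bhlhe40*) were lower, beside 7.11% of all genes. In KO HFD against WT CD the same 2 of 3 were lower with TMM, beside 5.13%. *Ccl7*, a monocyte chemokine chosen after its values were seen, had 83.7 CPM in WT CD, 195 CPM in WT HFD and 179 CPM in KO HFD. *Gas6*, a ligand of TAM receptors chosen in the same way, had 58.9, 29.3 and 31.7 CPM in the same order.

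The FAP gate, read with the same call rule, had 17 genes higher and 23 lower of 2895 in WT HFD against WT CD, and 14 higher and 8 lower of 2920 in KO HFD against WT HFD. Its summed counts are larger than those of MuSCs, so the numbers of calls are set side by side and not compared.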
